A study of Chlamydomonas reinhardtii with 18 samples.

Results

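The genes described here code for subunits of the mitochondrial respiratory chain and ATP synthase of the green alga *Chlamydomonas reinhardtii*. They were chosen by identifier and number 10 of the 17766 features in each count table. Nuclear genes make up 7 of them, and 3 lie on the mitochondrial genome. Cells of strain 6145c were kept in darkness at 25 °C. The nitrite arm received 10 mM nitrite in 3 flasks, and the control arm had 3 flasks that received none. Samples taken at 15 min, 3 h and 24 h gave 18 libraries of polyadenylated RNA, 3 in each of 6 groups. Darkness is common to both arms at all times sampled, and no library came from cells in light. A difference between times within an arm is one between lengths of time in darkness and in culture, which cannot be told apart.

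Respiratory complex I takes electrons from NADH, complex III passes them from ubiquinol to cytochrome c, and complex IV passes them to oxygen. Each of these pumps protons, and complex V, the ATP synthase, makes ATP as the protons return. In this alga the small linear mitochondrial genome codes for some membrane subunits of complex I, for cytochrome b and for 1 subunit of complex IV, and for no subunit of the ATP synthase. Several subunits that mitochondrial DNA encodes in most organisms, among them COX2 and COX3, are encoded in its nucleus, and COX2 is split there into a pair of genes.

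The mitochondrial genes were nad4 and nad5, which code for membrane subunits of complex I, and cob, which codes for cytochrome b of complex III. In this genome nad4 and cob are transcribed together. The nuclear genes were CYC1 (Cre15.g638500), which codes for cytochrome c1 of complex III, and RIP1 (Cre01.g051900), which codes for its Rieske iron-sulfur protein. COX2A (Cre03.g154350) and COX2B (Cre01.g049500) code for the front and back parts of COX2, the complex IV subunit that takes electrons from cytochrome c, and COX3 (Cre04.g221700) codes for another core subunit. ATP1A (Cre02.g116750) and ATP2 (Cre17.g698000) code for the alpha and beta subunits of the catalytic head of the ATP synthase. The nuclear names were given from prior knowledge, since neither the deposited tables nor the reference gene table pairs these identifiers with names. In assembly Chlamydomonas_reinhardtii_v5.5 the gene spans were 3:1808822-1811733 for COX2A, 1:6853369-6854952 for COX2B, 4:2469447-2473170 for COX3 and 15:1058253-1063713 for CYC1. They were 1:7219711-7221792 for RIP1, 2:6525910-6530624 for ATP1A and 17:254682-259533 for ATP2.

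Gene reads ran from 6695500 to 8469882 per library, and all 10 genes passed the filter on low counts, as did 13564 features in all. Levels are given as CPM, counts scaled to a common TMM-adjusted library size, so each level is relative to the other RNA of its library and is not a plain share of its reads. In a bulk culture a change in every cell and a change in some of the cells cannot be told apart. They are not set against each other between genes, because no transcript lengths were used. A gene is said to have risen or fallen where the Benjamini-Hochberg adjusted p of edgeR's quasi-likelihood test was under 0.05 over all 13564 features. There were 3 libraries unlike the rest of their group. Those labelled nitrite 15 min number 2 and nitrite 3 h number 2 lay with the libraries of each other's time over the 13554 tested features other than the 10 genes. On the first principal component of the 6 nitrite libraries of 15 min and 3 h they stood at -36.1 and 34.9, where the other libraries of 15 min were at 40.3 and 32.8 and the other libraries of 3 h at -36.2 and -35.8. Their ATP synthase levels crossed in the same way. Control 3 h number 3 had 36.5% of its reads aligned more than once, against 16.7% to 21.6% elsewhere. Because the nitrite pair was set apart by measured values that follow time, and its removal also narrows the spread that all groups share, differences seen without these 3 libraries are given as descriptions and carry no test.

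Between 15 min and 24 h ATP1A fell furthest, ATP2 and nad4 fell by less, the split COX2 genes fell modestly, and the remaining genes of complexes III and IV had log2 fold changes between -0.40 and 0.40. In the nitrite arm 5 of the 10 genes fell and 1 rose, where 31% of all tested features fell and 27.7% rose. In the control arm 5 genes fell and 0 rose, where 22.1% of all features fell and 20.8% rose. COX2A, COX2B, ATP1A, ATP2 and nad4 fell in both arms, which share no libraries. The median log2 fold change of the 7 nuclear genes was -0.68 in the nitrite arm and -0.56 in the control arm, against -0.06 and -0.00 over all features.

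**Figure D1:**
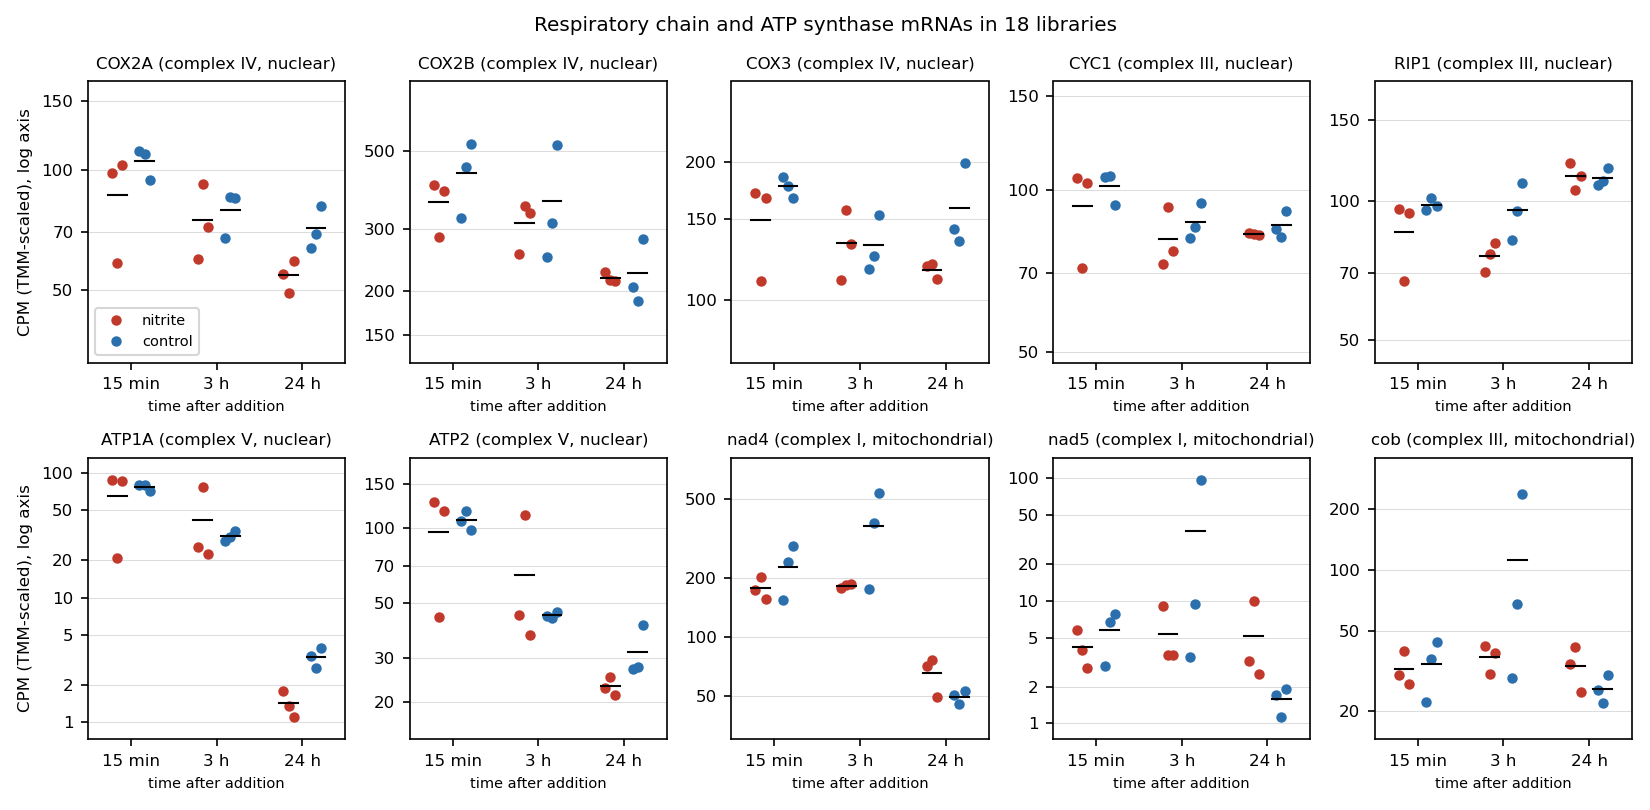
Level of each gene in each library, in CPM on a log axis, at 15 min, 3 h and 24 h, with nitrite libraries in red to the left of control libraries in blue and a black line at the mean of the 3 libraries. ATP1A is between 1.10 and 3.95 CPM in the 6 libraries of 24 h and at 20.9 CPM or more in every earlier library, while cob at 24 h lies within the range of the 15 min libraries but for 1 control library.

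In complex I, nad4 was the mitochondrial gene with most reads, 24753 of the 31500 assigned to the 3 genes. Its level in the nitrite arm was 173, 202 and 157 CPM at 15 min, 176, 184 and 186 CPM at 3 h, and 71.4, 76.2 and 49.8 CPM at 24 h. The control arm had nad4 at 153, 240 and 290 CPM at 15 min, 175, 380 and 540 CPM at 3 h, and 50.4, 45.4 and 53.1 CPM at 24 h. The 24 h libraries lay below every 15 min and 3 h library of both arms. Against 15 min, nad4 at 24 h was 2.69-fold lower in the nitrite arm (log2 fold change -1.43, SE 0.30, edgeR adjusted p = 0.000328) and 4.58-fold lower in the control arm (-2.20, SE 0.30, edgeR adjusted p = 7.93e-06). Both falls passed the test in each of the alternative fits run, including those that left out 1 library.

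The other complex I gene, nad5, had few reads, 1034 over all libraries. Its level in the nitrite arm was 5.81, 3.98 and 2.81 CPM at 15 min, 9.004, 3.64 and 3.58 CPM at 3 h, and 3.23, 9.89 and 2.52 CPM at 24 h. Control libraries had nad5 at 2.92, 6.67 and 7.74 CPM at 15 min, 3.46, 9.49 and 97.2 CPM at 3 h, and 1.70, 1.12 and 1.91 CPM at 24 h. The times overlapped in the nitrite arm, and in the control arm the 24 h libraries lay below those of 15 min. The log2 fold change of nad5 between 15 min and 24 h was 0.31 in the nitrite arm (95% interval -1.84 to 2.46, edgeR adjusted p = 0.802) and -1.83 in the control arm (-4.24 to 0.58, edgeR adjusted p = 0.196). The intervals are wide, and at this depth the nitrite arm cannot show whether nad5 rose, fell or kept its level.

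In complex III, the fall seen for nad4 was not found for cob. Its level in the nitrite arm was 30.3, 39.8 and 27.3 CPM at 15 min, 41.8, 30.5 and 38.9 CPM at 3 h, and 34.1, 41.6 and 25.0 CPM at 24 h. For cob the control arm had 22.2, 36.4 and 44.0 CPM at 15 min, 29.2, 67.9 and 238 CPM at 3 h, and 25.4, 21.9 and 30.1 CPM at 24 h. The 24 h and 15 min libraries overlapped in both arms. The log2 fold change between 15 min and 24 h was 0.05 in the nitrite arm (95% interval -1.06 to 1.16, edgeR adjusted p = 0.941) and -0.40 in the control arm (-1.51 to 0.71, edgeR adjusted p = 0.552).

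The nuclear genes of the same complex stayed within narrower ranges. CYC1 at 24 h averaged 82.8 ± 0.398 CPM in the nitrite arm and 86.0 ± 4.78 CPM in the control arm (SD, n = 3 each), with log2 fold changes against 15 min of -0.17 and -0.25, neither past the test (edgeR adjusted p = 0.393 and 0.248). RIP1 at 24 h stood at 121, 106 and 114 CPM in the nitrite arm, against 96.0, 67.0 and 94.3 CPM at 15 min, and it was the only 1 of the 10 genes that rose between these times (log2 fold change 0.40, SE 0.17, edgeR adjusted p = 0.0439). The groups did not overlap. The rise of RIP1 was not past the test without the library labelled nitrite 15 min number 2 (edgeR adjusted p = 0.218), without either nitrite 24 h library number 1 or 3 (0.0883 and 0.0878), without all 3 libraries that stood apart (0.102), without the filter (0.0782) or in a fit to the libraries of these groups alone (0.101), and it was -0.27 (0.399) without TMM scaling. RIP1 in the control arm at 24 h was at 108, 110 and 118 CPM, against 95.6, 102 and 97.4 CPM at 15 min, and its log2 fold change of 0.19 was not past the test (edgeR adjusted p = 0.374).

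In complex IV, both parts of COX2 fell in both arms. COX2A at 24 h was at 54.9, 49.1 and 59.2 CPM in the nitrite arm, against 98.6, 58.4 and 103 CPM at 15 min, a 1.60-fold lower level (log2 fold change -0.68, SE 0.21, edgeR adjusted p = 0.00898). Control flasks had COX2A at 24 h at 63.6, 69.0 and 81.5 CPM, against 112, 110 and 94.6 CPM at 15 min, a 1.48-fold lower level (-0.56, SE 0.21, edgeR adjusted p = 0.0333). The nitrite libraries of COX2A overlapped by 1 library, the one labelled nitrite 15 min number 2, and the control libraries did not overlap. COX2B at 24 h was at 226, 216 and 214 CPM in the nitrite arm, against 401, 286 and 386 CPM at 15 min, a 1.64-fold lower level (-0.71, SE 0.25, edgeR adjusted p = 0.0189). Control flasks had COX2B at 24 h at 205, 188 and 281 CPM, against 322, 449 and 525 CPM at 15 min, a 1.92-fold lower level (-0.94, SE 0.25, edgeR adjusted p = 0.00453). The times did not overlap for COX2B in either arm.

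These modest falls depended more on single libraries than those of the ATP synthase. The fall of COX2A was past the test in 5 of 6 fits that left out 1 library in the nitrite arm, the exception being nitrite 15 min number 3 (edgeR adjusted p = 0.0581). In the control arm it was past the test in 2 of 6, and missed without control 15 min number 1 (0.0905) or 2 (0.0875) and without control 24 h number 1 (0.118) or 2 (0.0915). The fall of COX2B was past the test in 6 of 6 such fits in the control arm. In the nitrite arm the fall of COX2B was past it in 1 of 6, the fit without nitrite 15 min number 2, with an edgeR adjusted p of at most 0.0644 in the others. COX3, the third gene of the complex, was at 117 ± 4.60 CPM at 24 h in the nitrite arm, against 149 ± 34.2 CPM at 15 min, and at 159 ± 35.1 CPM at 24 h in the control arm, against 177 ± 9.25 CPM at 15 min (SD, n = 3 each). Its log2 fold changes of -0.36 and -0.16 were not past the test (edgeR adjusted p = 0.131 and 0.555). Without the 3 libraries that stood apart, the log2 fold change of COX3 in the nitrite arm was -0.50.

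Of the ATP synthase genes, ATP1A had the largest fall of the 10 genes in both arms, and ATP2 had the next largest in the nitrite arm only, nad4 having it in the control arm. ATP1A in the nitrite arm was at 87.6, 20.9 and 86.4 CPM at 15 min, 25.2, 77.2 and 22.4 CPM at 3 h, and 1.79, 1.36 and 1.10 CPM at 24 h. Control libraries had ATP1A at 79.9, 79.2 and 71.0 CPM at 15 min, 28.3, 30.3 and 34.1 CPM at 3 h, and 3.40, 2.74 and 3.95 CPM at 24 h. The levels at 24 h rest on 10, 8 and 7 reads in the nitrite arm and 26, 22 and 29 reads in the control arm, and all lie below every earlier library. ATP1A at 24 h was 45.7-fold lower than at 15 min in the nitrite arm (log2 fold change -5.51, SE 0.63, edgeR adjusted p = 1.35e-06) and 22.8-fold lower in the control arm (-4.51, SE 0.55, edgeR adjusted p = 7.14e-06).

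ATP2, for the beta subunit, went the same way over a smaller range. In the nitrite arm ATP2 was at 127, 44.0 and 117 CPM at 15 min, 44.5, 112 and 37.2 CPM at 3 h, and 22.8, 25.2 and 21.3 CPM at 24 h. Control libraries had ATP2 at 107, 117 and 98.1 CPM at 15 min, 44.4, 43.5 and 45.7 CPM at 3 h, and 27.2, 27.5 and 40.7 CPM at 24 h. The 24 h libraries lay below every 15 min and 3 h library of their arm. ATP2 at 24 h was 4.16-fold lower than at 15 min in the nitrite arm (log2 fold change -2.06, SE 0.38, edgeR adjusted p = 0.000153) and 3.37-fold lower in the control arm (-1.75, SE 0.37, edgeR adjusted p = 0.000972). ATP1A and ATP2 fell in each of the alternative fits run, in both arms.

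**Figure D2:**
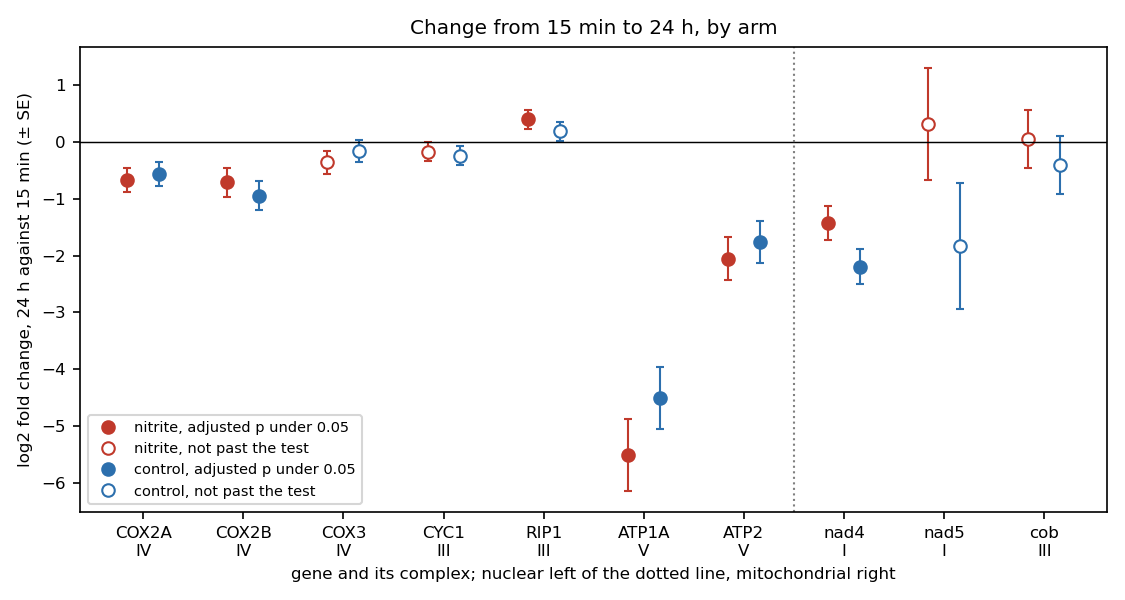
Log2 fold change of each gene at 24 h against 15 min, with its SE, in the nitrite arm (red, left) and the control arm (blue, right), where filled points passed the test. ATP1A is lowest at -5.51 and -4.51, RIP1 is above 0 in both arms and filled only in the nitrite arm, and the SE of nad5 reaches 1.11.

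At 3 h ATP1A was at 22.4 to 34.1 CPM in 5 of 6 libraries, above every 24 h library and below 5 of the 6 libraries of 15 min. The exceptions were the libraries labelled nitrite 3 h number 2, at 77.2 CPM, and nitrite 15 min number 2, at 20.9 CPM. In all libraries together, 0 of the 10 genes passed edgeR's test for 3 h against 15 min in the nitrite arm, where 0% of all features were called, and 0 had an unadjusted p under 0.05. In the control arm 0 passed, where 1.26% of all features were called, 6 had an unadjusted p under 0.05, and DESeq2 called 3, where it called 4.92% of all features. Voom called 0 in both arms. Without the 3 libraries that stood apart, 4 genes were lower past the threshold in each arm, where 10.7% of all features were in the nitrite arm and 6% in the control arm. These counts rest on a choice of libraries by the same change with time and support nothing. The log2 fold change of ATP1A at 3 h was then -1.85 in the nitrite arm and -1.39 in the control arm, against -0.64 in the nitrite arm with all libraries (edgeR adjusted p = 1). That of ATP2 was -1.55 in the nitrite arm and -1.29 in the control arm, against -0.57 in the nitrite arm with all libraries (edgeR adjusted p = 1). The mitochondrial genes had log2 fold changes of 0.16 to 0.61 in the nitrite arm and 0.17 to 0.50 in the control arm without these libraries. Without control 3 h number 1 alone, in contrast, all 3 mitochondrial genes rose in the control arm, where 3.34% of all features rose (edgeR adjusted p = 0.0244 for nad4, 0.0273 for nad5 and 0.0118 for cob).

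Nitrite against control at a matched time asks whether the compound moves these genes beyond what time alone does. At 15 min, 0 of the 10 genes passed edgeR's test, where 0.0295% of all features were called, and 0 had an unadjusted p under 0.05. Log2 fold changes ran from -0.43 for nad5 to -0.07 for cob. DESeq2 and voom also called 0.

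At 3 h, 0 of the 10 genes passed edgeR's test, where 2.73% of all features were called, and 3 had an unadjusted p under 0.05. Those 3 were the mitochondrial genes. In nitrite libraries nad4 averaged 182 ± 4.997 CPM, against 365 ± 183 CPM in control libraries (log2 fold change -1.001, 95% interval -1.63 to -0.37, edgeR adjusted p = 0.0583). In nitrite libraries cob averaged 37.1 ± 5.85 CPM, against 112 ± 111 CPM in control libraries (-1.57, -2.68 to -0.47, edgeR adjusted p = 0.0906). For nad5 the averages were 5.41 ± 3.12 CPM in nitrite libraries and 36.7 ± 52.4 CPM in control libraries (-2.69, -4.59 to -0.78, edgeR adjusted p = 0.0927). The arms overlapped for all 3 genes. Control 3 h number 3, the library with 36.5% of reads aligned more than once, had the highest CPM of all 18 for each of them, and the part of that share in the result was not tested. Its TMM factor, 0.604, was the lowest of all libraries, and a lower factor gives a higher CPM. Unscaled, its nad4 reads were 2184 of 6695500 gene reads, a smaller share than the 2682 of 7915971 in control 3 h number 2. For nad5 and cob this did not hold: its 393 and 961 reads were the most of any library before scaling. Without control 3 h number 3 the log2 fold change was -0.61 for nad4, -0.23 for nad5 and -0.38 for cob (edgeR adjusted p = 0.289, 0.878 and 0.583). Without all 3 libraries that stood apart it was -0.61, 0.03 and -0.25 for the same genes. Without control 3 h number 1 all 3 fell (0.00251, 0.0143 and 0.0047), where 4.05% of all features fell. DESeq2 called all 3 lower, where it called 2.51% of all features lower (adjusted p = 0.0207, 0.0351 and 0.0431 for nad4, nad5 and cob), and voom called 0.

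At 24 h, 0 of the 10 genes passed edgeR's test, where 29.4% of all features were called, and 1, COX3, had an unadjusted p under 0.05. ATP1A averaged 1.42 ± 0.349 CPM in nitrite libraries and 3.36 ± 0.608 CPM in control libraries (SD, n = 3 each), and the 3 nitrite libraries lay below the 3 control libraries. Its log2 fold change was -1.24 (SE 0.74, 95% interval -2.84 to 0.36, edgeR adjusted p = 0.225). Without the 3 libraries that stood apart, none of which is from 24 h, the log2 fold change was -1.22 for ATP1A, -0.44 for ATP2 and -0.43 for COX3, and these 3 were lower past the threshold, where 17.5% of all features were. For ATP1A the SE was 0.28 and not 0.74, after the removal of libraries that deviate in ATP1A itself, so no test is read from it. With only the groups of 24 h in the fit 5 genes were called, where 39.8% of all features were called, and DESeq2 and voom called 0.

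Whether the nitrite effect changed with time was tested as a difference of differences. For 3 h against 15 min 0 genes passed edgeR's test, where 0% of all features were called, and for 24 h against 15 min 0 passed, where 6.9% were called. In both, 0 had an unadjusted p under 0.05, and DESeq2 and voom called 0. For ATP1A the difference of log2 fold changes between 24 h and 15 min, nitrite arm minus control arm, was -1.003 (95% interval -2.87 to 0.87, edgeR adjusted p = 0.527). Without the 3 libraries that stood apart it was -1.38, the only 1 of the 10 genes lower past the threshold, where 5.84% of all features were. One of the libraries removed is the 15 min nitrite library with the lowest ATP1A, so that value is a description. A further difference, 24 h against 3 h, was added after the data were seen, and there 1 of the 10 genes, nad4, was called (1.41, SE 0.41, edgeR adjusted p = 0.0492), where 5.53% of all features were called. It was past the test in 2 of the 12 fits that left out 1 library, and was 1.03 (edgeR adjusted p = 0.139) without control 3 h number 3.

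The balance between the genomes was read as the reads of nad4, nad5 and cob over the reads of the 7 nuclear genes, a ratio within a library that needs no scaling. It is given with no test, as a value over chosen genes. The genes with most reads weigh most: nad4 held 59.7% to 85.9% of the mitochondrial reads and COX2B 30.7% to 50% of the nuclear reads. With genes weighed alike, the log2 difference of 24 h against 15 min in the nitrite arm was 0.76 and not -0.47. In the nitrite arm the ratio of reads was 0.192, 0.373 and 0.176 at 15 min, 0.355, 0.228 and 0.301 at 3 h, and 0.173, 0.213 and 0.128 at 24 h. The ratio in the control arm was 0.177, 0.248 and 0.298 at 15 min, 0.309, 0.589 and 0.838 at 3 h, and 0.122, 0.111 and 0.104 at 24 h. Mitochondrial reads were the minority in every library, a comparison of 3 genes with 7 in which no lengths were used. At 24 h the nitrite libraries lay above the control libraries, at 15 min the arms overlapped, and in the control arm the 3 times did not overlap. That separation of times in the control arm depends on the weighting. As a difference of mean log2 CPM per genome, the 24 h control libraries stood at -2.04, -2.28 and -2.21. These lay within the 15 min range of -2.54 to -1.44, as did control 3 h number 1 at -1.54. The mean log2 ratio at 24 h was -2.58 ± 0.368 in the nitrite arm and -3.15 ± 0.113 in the control arm (SD, n = 3 each), a difference of 0.58.

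As unscaled shares of gene reads, both genomes' genes were lower at 24 h than at 15 min. Reads of the 3 mitochondrial genes made up 0.00759% ± 0.00149 of gene reads at 24 h in the nitrite arm and 0.00747% ± 0.00034 in the control arm, against 0.0245% ± 0.000954 and 0.0305% ± 0.00454 at 15 min (SD, n = 3 each). The 7 nuclear genes made up 0.0448% ± 0.00422 at 24 h in the nitrite arm and 0.0668% ± 0.00816 in the control arm, against 0.110% ± 0.0361 and 0.129% ± 0.0147 at 15 min. On the TMM scale the differences were smaller. The 3 mitochondrial genes summed to 104.6 ± 25.5 CPM at 24 h in the nitrite arm, against 213.7 ± 29.8 CPM at 15 min, and only nad4 of the 3 passed the test. In the control arm their sum was 77.0 ± 8.39 CPM at 24 h, against 267.6 ± 82.7 CPM at 15 min. The 7 nuclear genes summed to 610.2 ± 15.6 CPM at 24 h in the nitrite arm, against 933.8 ± 240 CPM at 15 min, and to 688.2 ± 111 CPM in the control arm, against 1099 ± 78.6 CPM. The libraries were poly(A) selected, so for mitochondrial genes a change in amount and a change in the share of RNA that selection retains cannot be told apart.

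Within the mitochondrial genes the mix changed with time in both arms. There were 5.71, 5.07 and 5.74 nad4 reads per cob read in the nitrite arm at 15 min, 4.22, 6.03 and 4.77 at 3 h, and 2.09, 1.83 and 1.99 at 24 h. In the control arm there were 6.88, 6.60 and 6.58 at 15 min, 5.98, 5.60 and 2.27 at 3 h, and 1.99, 2.07 and 1.76 at 24 h. The 24 h libraries lay below all earlier libraries in both arms, control 3 h number 3 being nearest to them at 2.27. The arms overlapped at 24 h and did not at 15 min, where the nitrite libraries were lower. This ratio was looked at after the levels of its genes were known and carries no test.

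**Figure D3:**
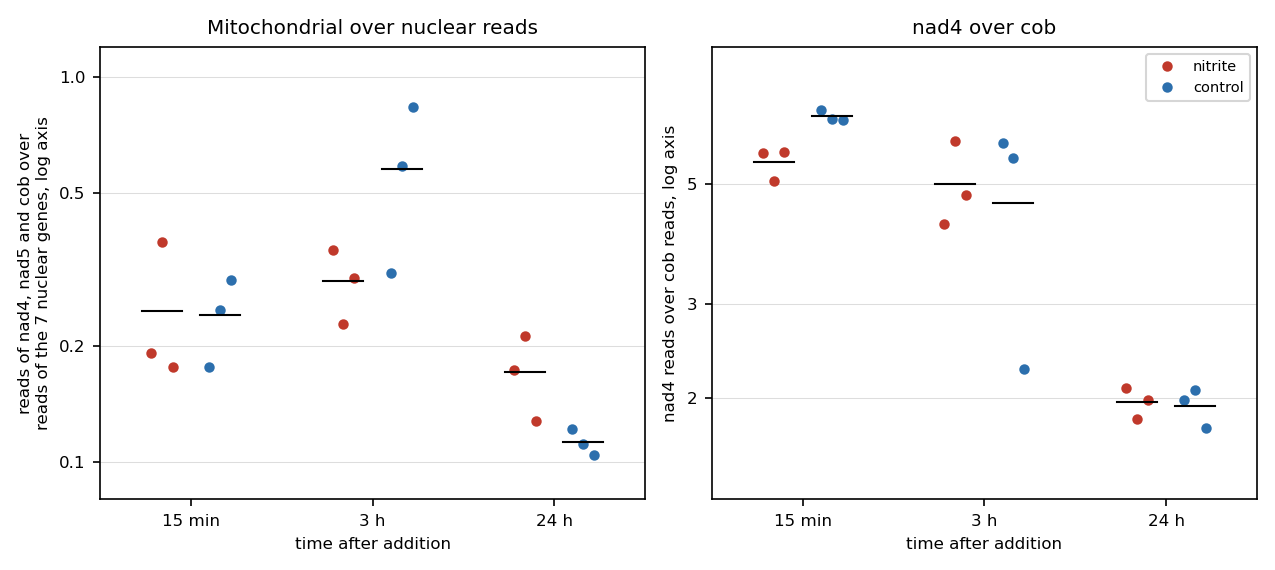
Ratio of mitochondrial to nuclear reads of the 10 genes (left) and nad4 reads per cob read (right) in each library on log axes, nitrite in red to the left of control in blue, with a black line at the mean of the 3 libraries. The control libraries of 24 h lie lowest in the left panel, at 0.104 to 0.122, and all 6 libraries of 24 h lie between 1.76 and 2.09 in the right panel.

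The mitochondrial genes could not be set against the rest of their genome. Each table lists 25 organelle features, all mitochondrial, and the other 22 held 434 reads over all 18 libraries, against 31500 for nad4, nad5 and cob. Among them cox1, which codes for the complex IV subunit kept in the mitochondrion, had 22 reads, nad1 had 74, nad2 had 13 and nad6 had 0. No such feature had more than 12 reads in a library, and 0 of the 22 passed the filter on low counts.

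Across the 18 libraries the genes formed loose groups, described here by Pearson's r of log2 CPM with no p, since libraries of a group share their condition. For ATP1A and ATP2 r was 0.91, and for COX2A it was 0.80 with ATP1A, 0.88 with ATP2, 0.85 with CYC1 and 0.83 with COX3. Between COX3 and CYC1 r was 0.86. For nad5 and cob r was 0.93, and 0.81 without control 3 h number 3. RIP1 ran against ATP1A at -0.52. The correlation of nad4 was 0.81 with COX2B, 0.80 with ATP1A, 0.74 with nad5 and 0.68 with cob. The features whose log2 CPM was nearest to the mean of the 7 nuclear genes were Cre06.g304350 (r 0.990), Cre09.g392350 (0.981), Cre07.g338050 (0.979), Cre15.g635850 (0.978) and Cre01.g045550 (0.976), out of 13554. Nearest to the mean of the 3 mitochondrial genes were Cre10.g456200 (0.931), Cre06.g264300 (0.918), Cre13.g590150 (0.906), Cre16.g650550 (0.896) and Cre07.g325746 (0.895). Without control 3 h number 3 their r was 0.861, 0.885, 0.824, 0.780 and 0.795, and only Cre06.g264300 was still among the 5 nearest, while the 5 features named for the nuclear genes all were. The same counts, 1 and 5, held without all 3 libraries that stood apart.

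Other loci of the same complexes were taken from a list of 22 nuclear loci entered from prior knowledge, and no table used here gives their names. All 22 were tested. At 24 h against 15 min 9 fell and 4 rose in the nitrite arm, where 31% of all features fell and 27.7% rose, and 8 fell and 2 rose in the control arm, where 22.1% fell and 20.8% rose. Over 15 alternative fits 8 to 14 fell and 1 to 4 rose in the nitrite arm, and 7 to 10 fell and 0 to 2 rose in the control arm. The list had medians of -0.26 and -0.24 on the log2 scale, against -0.06 and -0.00 over all features. Of the 6 entered under ATP synthase, 5 fell in the nitrite arm, where 31% of all features fell, and 5 in the control arm, where 22.1% fell, with medians of -1.25 and -1.08. Without the 3 libraries that stood apart the count was also 5 in each arm. The list's largest falls in the nitrite arm were those of Cre15.g635850 (-2.15, edgeR adjusted p = 2.78e-06) and Cre07.g338050 (-1.69, edgeR adjusted p = 1.01e-05), both entered under ATP synthase. In the control arm these loci fell by 1.59 and 1.47 on the log2 scale (edgeR adjusted p = 0.000125 and 8.84e-05). Both are among the nearest features above, a likeness read from the same libraries that adds nothing to these falls. The nuclear mean used there moves most with ATP1A, whose CPM spanned 79.4-fold over the libraries.

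Of the 11 loci entered under complex I, 2 rose and 2 fell in the nitrite arm, and 1 rose and 1 fell in the control arm, shares below the 27.7% and 31% of all features that rose and fell in the nitrite arm and the 20.8% and 22.1% in the control arm. These counts changed over the 15 alternative fits. From 0 to 2 rose and 2 to 6 fell in the nitrite arm, and 0 to 1 rose and 0 to 2 fell in the control arm. The pair under complex II split, with 1 that rose and 1 that fell in each arm, and the riser, Cre06.g264200, had the list's largest rise in the nitrite arm (1.37, edgeR adjusted p = 1.92e-06). The fall in the nitrite arm was close to the threshold (edgeR adjusted p = 0.0493) and was not past it in every alternative fit. In the control arm the rise of Cre06.g264200 was not past the test without TMM scaling (0.43, edgeR adjusted p = 0.243). The locus under complex IV fell in both arms. At 24 h 1 of the 22 rose in nitrite libraries relative to control libraries and 4 fell, where 15.4% of all features rose and 13.9% fell. The riser was Cre03.g169550, entered under alternative oxidase, an enzyme that passes electrons from ubiquinol to oxygen and bypasses complexes III and IV. It averaged 3.27 ± 0.715 CPM in nitrite libraries and 1.01 ± 0.455 CPM in control libraries at 24 h (SD, n = 3 each; log2 fold change 1.69, edgeR adjusted p = 0.00574), on 58 and 23 reads. Without TMM scaling the adjusted p of Cre03.g169550 was 0.0537. The other locus entered under alternative oxidase was not past the test (log2 fold change 0.50, edgeR adjusted p = 0.249). It averaged 129.4 ± 13.7 CPM in nitrite libraries and 91.3 ± 12.9 CPM in control libraries at 24 h. The largest falls were those of Cre09.g415550 (-0.90, edgeR adjusted p = 0.014), entered under ATP synthase, and Cre15.g635850 (-0.86, edgeR adjusted p = 0.0316). Without nitrite 24 h number 3 the adjusted p of Cre09.g415550 was 0.0874. The fall of Cre15.g635850 was past the test in 10 of 15 alternative fits, and missed it without nitrite 24 h number 1 (0.125), 2 (0.0608) or 3 (0.066) and without control 24 h number 1 (0.0615) or 3 (0.0989).

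**Figure D4:**
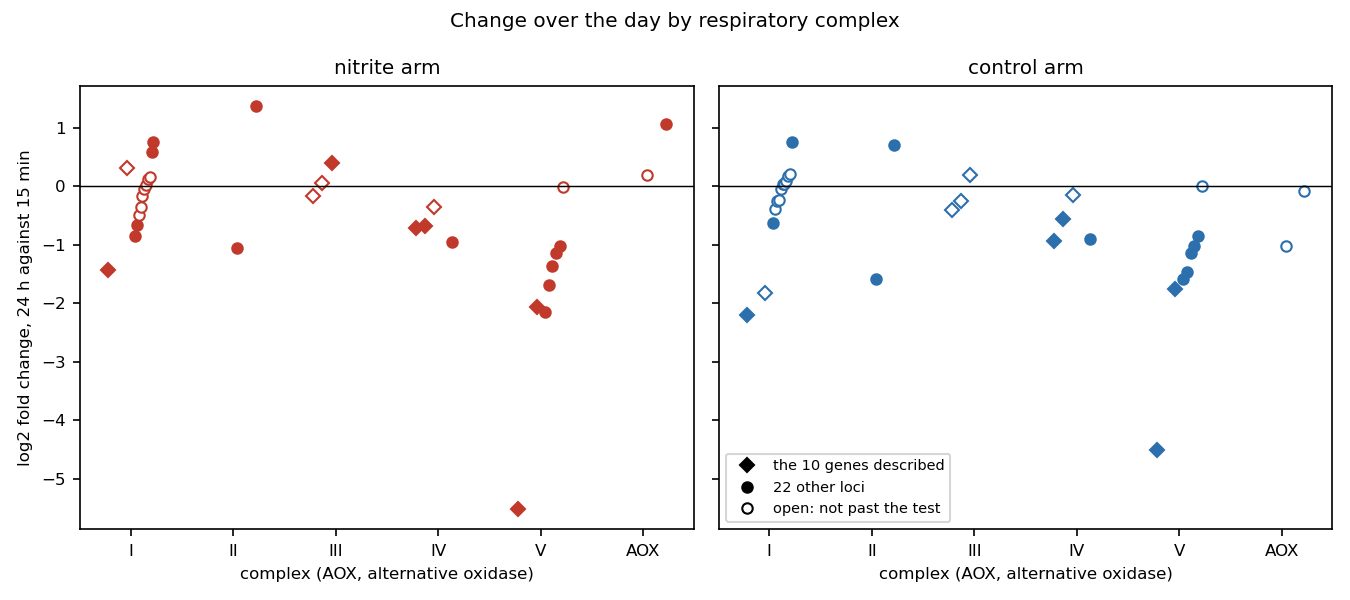
Log2 fold change at 24 h against 15 min by complex in the nitrite arm (left) and the control arm (right), with diamonds for the 10 genes described, circles for 22 other loci entered from prior knowledge, and open symbols for those not past the test. Under complex V, 7 of 8 symbols are filled and below 0 in each arm, while under complex I symbols lie on both sides of 0.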

How the data were processed

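Stranded poly(A) libraries were made from cell pellets with an Illumina kit, per the labels' protocols. The authors deposited raw counts, whole numbers of reads assigned to each gene, with 1 table for each library. Per the submitters' processing notes, the aligner was TopHat2 2.0.13 and reads were counted with HTSeq. Not given in the sources used here are the genome build, the strand setting and how reads with several alignments were treated, so reads of overlapping or near-identical genes are uncertain. The 5 summary lines of each table were kept out of totals: 0.892% to 1.67% of reads lay outside genes, 0.0597% to 0.439% were ambiguous and 16.7% to 36.5% aligned more than once.

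The tests used edgeR 4.0.16 (R 4.3.3) on all 18 libraries, with 1 mean per group, TMM scaling, filterByExpr (minimum count 10) and robust quasi-likelihood F tests. P-values were adjusted over 13564 features (Benjamini-Hochberg). The SE is the log2 fold change over the square root of F. The 95% intervals use the 12 residual degrees of freedom alone and not those of the test. An interval can therefore include 0 where the test's unadjusted p is under 0.05. The fit was tested on simulated data. The 10 comparisons include 1 added after the data were seen, the nitrite effect at 24 h against that at 3 h. Log2 CPM for correlations used a prior count of 2.

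The members and lists were chosen with earlier results of these data known. All 10 members are named. Of the other loci at most 2 that rose and 2 that fell are named per comparison, with the 5 nearest features per genome. A planned check of the names against protein sequence and a list from product text were not made, since the tables used here hold no sequence or product names. The 22 listed loci matched locus tags.

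Alternatives were DESeq2's size factors (RLE), no scaling, nuclear-gene scaling, no filter, DESeq2 1.42.0, voom (limma 3.58.1), a replicate block, only the groups compared, leaving out each library, and leaving out the 3 that stood apart. Per the series' design text the replicates are 3 separate flasks, and same-numbered libraries may share a flask across times. Their deviations from group means correlated at over 0.1 in 4 of 21 pairs (-0.769 to 0.384), and numbers were not taken as pairs. For 3 h against 15 min the values were -0.469, -0.769 and -0.392 in the nitrite arm, which holds the libraries that lay with each other's time. In the control arm they were 0.384, 0.011 and 0.374. These values cannot decide whether same-numbered libraries share a flask, and the main fit took all libraries as independent. Replicates differed by more than sampling noise (chi-square per degree of freedom at least 4.26).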

Additional observations from a re-analysis of the deposited data

Results flagged for a closer look

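The nitrite effect on nad4 differed between 24 h and 3 h in the test of that difference, a comparison added after the data were seen. The log2 fold change of nitrite against control was 0.41 at 24 h and -1.001 at 3 h, a difference of 1.41 (SE 0.41, edgeR adjusted p = 0.0492), where 5.53% of all features were called. It was 1 of 10 genes tested. The difference for nad4 was not past the test without TMM scaling (0.48, adjusted p = 0.312), without the filter (1.38, 0.0507), with voom (1.28, 0.0748), with the replicate block (1.36, 0.0603) or without the 3 libraries that stood apart (1.04, 0.132). With 1 library left out it passed in 2 of 12 fits, without nitrite 24 h number 3 (1.57, 0.046) and without control 3 h number 1 (1.74, 0.00343), and the highest adjusted p was that without control 3 h number 3 (1.03, 0.139). Control 3 h number 3 has the highest nad4 level on the TMM scale, 540 CPM, and the lowest TMM factor, 0.604, which raises its CPM. It also has the highest share of reads aligned more than once, 36.5%, and the part of that share in the result was not tested.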

How the results depend on the processing

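Over the alternatives, 138 of 165 counts of called genes were within 1.5 times the value given in the report, and the rest follow. For nitrite against control at 3 h the count was 3 with DESeq2 and 0 to 3 with 1 library left out, 3 without control 3 h number 1. At 24 h it was 1 without TMM scaling, 3 without the 3 libraries that stood apart, 5 with only the groups compared and 0 to 0 with 1 library left out. For 3 h against 15 min it was 4 in the nitrite arm without those 3 libraries, and in the control arm 3 with DESeq2, 4 without those libraries, 2 with only the groups compared and 0 to 3 with 1 library left out. The difference of nitrite effects at 24 h and 15 min had 1 call without those libraries. That at 24 h and 3 h, 1 call in the report, had 0 without TMM scaling, without the filter, with voom, with the replicate block and without those libraries, 2 with DESeq2 and 0 to 3 with 1 library left out. The replicate block changed no other count of these genes, though it took the features called for nitrite against control at 3 h to 198, against 370, and in the control arm at 3 h against 15 min to 14, against 171. Counts without the 3 libraries are descriptions, since the nitrite pair among them was set apart by its measured values. Causes were not tested.

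The log2 genome ratio depends on how genes are weighted. As a difference of mean log2 CPM per genome, which weighs ATP1A like the others, nitrite against control at 24 h was 1.05 and not 0.58, 24 h against 15 min was 0.76 and not -0.47 in the nitrite arm and -0.25 and not -1.07 in the control arm, and the differences of nitrite effects at 24 h were 1.01 and not 0.59 against 15 min and 2.19 and not 1.46 against 3 h. Without the 3 libraries that stood apart, nitrite against control was -0.35 and not -0.01 at 15 min and -0.38 and not -0.88 at 3 h. In the nitrite arm, 3 h against 15 min was 0.83 and not 0.32, and 24 h against 15 min was -0.13 and not -0.47. The differences of effects were -0.03 and not -0.86 for 3 h against 15 min, 0.93 and not 0.59 for 24 h against 15 min, and 0.96 and not 1.46 for 24 h against 3 h. For log2 nad4 over cob without them, nitrite against control at 3 h was -0.37 and not 0.22, 3 h against 15 min was -0.35 and not -0.15 in the nitrite arm and -0.21 and not -0.66 in the control arm, and the differences of effects were -0.14 and not 0.51 for 3 h against 15 min and 0.39 and not -0.20 for 24 h against 3 h.

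With 1 library left out, the log2 genome ratio ran from -0.35 to 0.19, -1.27 to -0.55 and 0.41 to 0.77 for nitrite against control at 15 min, 3 h and 24 h, and log2 nad4 over cob from -0.22 to 0.47 at 3 h, from 0.06 to 0.76 for the difference of effects at 3 h and 15 min and from -0.45 to 0.25 for that at 24 h and 3 h. RIP1 between 15 min and 24 h in the nitrite arm reversed to -0.27 without TMM scaling. Without it the median of all features was -0.71 in that arm and not -0.06, and -0.29 and not -0.00 in the control arm. The nitrite arm's falls were then 74.5-fold for ATP1A, 6.73-fold for ATP2, 4.26-fold for nad4, 2.55-fold for COX2A and 2.60-fold for COX2B. Depth limits nad5 and ATP1A at 24 h most, with 92 and 25 reads in the 3 nitrite libraries.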
